A study of Homo sapiens with 8 samples.

Results

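The 10 genes described here encode the core of clathrin-mediated endocytosis. They were the clathrin light chains CLTA and CLTB, the clathrin heavy chain CLTC, the AP2 subunits AP2A1, AP2A2, AP2B1, AP2M1 and AP2S1, and the dynamins DNM1 and DNM2. Members were taken from a list of gene symbols, with no measured value in the rule, and all 10 were listed in both expression tables of the study, among 19472 genes in the crowding table and 19551 in the ETV4 knockdown table. All 10 also passed the filter on low counts in each experiment.

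In clathrin-mediated endocytosis, AP2 binds the inner face of the plasma membrane and the tails of receptors, and recruits clathrin. Clathrin heavy chains with bound light chains then assemble into a cage that rounds the membrane into a pit. Dynamin is a GTPase that wraps the neck of the pit and cuts the vesicle free, after which the coat is removed and the cargo reaches early endosomes.

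The libraries were made from H9 cells, an established human embryonic stem cell (hESC) line (WiCell WA09) grown on Matrigel in mTeSR1 or TeSR-E8. The crowding experiment held 2 libraries labelled small, read here as the low-density state that the series names beside the high-density one, and 2 labelled crowded, from hESCs held at high density on patterned Matrigel. The ETV4 experiment held 2 Ctrl libraries, from H9 carrying a control short hairpin, and 2 ETV4 KD libraries, from H9 carrying a lentiviral hairpin against the ETS transcription factor ETV4. None of the labels says that libraries of a group came from separate cultures. The p-values below therefore measure only the spread between these libraries.

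Total counts ran from 50359703 to 62410168 reads per library. The labels were checked first. ETV4 was at 90.8 and 95.1 FPKM (a read density corrected for transcript length and for the size of the library) in Ctrl and at 45.6 and 40.9 in ETV4 KD, a log2 fold change of -1.15 ± 0.07 (SE). All 8 pluripotency markers examined exceeded 1 FPKM in every group, and none of the mesendoderm markers did. The pluripotency markers still shifted, in both directions. From small to crowded, the mean of NANOG went from 23.6 to 17.6 FPKM and that of SOX2 from 94.1 to 130. From Ctrl to ETV4 KD, the mean of TDGF1 went from 337 to 190 FPKM and that of LIN28A from 346 to 492. The fibroblast list, whose THY1 hESCs also express and whose DCN and LUM were in neither table, summed to 115–117 FPKM in small against 83.6–84.3 in crowded, and to 153–155 in Ctrl against 117–126 in ETV4 KD. The list did not move as one in the knockdown: the mean of THY1 went from 118 to 67.5 FPKM, whereas that of COL1A1 went from 21.9 to 43.9. Among neuroectoderm markers, NES made up nearly all of a sum that was 77.4–78.9 FPKM in small, 53.9–57.6 in crowded, 45.9–50.9 in Ctrl and 58.8–64.3 in ETV4 KD. DCX, at a mean of 0.574 FPKM in small, 0.779 in crowded, 1.55 in Ctrl and 0.397 in ETV4 KD, and SOX1, at 0.0095 in small and 0.060 in crowded, went against NES. LHX2, at 0.113 FPKM in small and 0.040 in crowded, fell with NES. PAX6, too low to be tested, was at 0.021 in small and 0.0078 in crowded. KRT7, the only trophoblast or amnion marker above 1 FPKM, was at a mean of 2.24 in small, 3.13 in crowded, 2.70 in Ctrl and 2.27 in ETV4 KD. The part of these shifts in the results below was not tested. In RNA from whole cultures, fewer cells of a type and less RNA per cell cannot be told apart.

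The clathrin genes lie on 3 chromosomes of GRCh37, the build of the deposited tables. CLTA (gene 1211) is at chr9:36190853-36304778 on the plus strand, CLTB (gene 1212) at chr5:175819502-175843540 on the minus strand, and CLTC (gene 1213) at chr17:57697045-57774317 on the plus strand. The AP2 genes are AP2A1 (gene 160, chr19:50270258-50310371, plus), AP2A2 (gene 161, chr11:924881-1012245, plus), AP2B1 (gene 163, chr17:33905065-34053432, plus), AP2M1 (gene 1173, chr3:183892477-183902002, plus) and AP2S1 (gene 1175, chr19:47341393-47354103, minus). The dynamins are DNM1 (gene 1759, chr9:130953934-131017527, plus) and DNM2 (gene 1785, chr19:10828731-10944164, plus). Exons of DNM2, AP2A1, CLTC and DNM1 overlap an exon of a protein-coding gene on the opposite strand, which matters because counting by strand is not stated. The shared stretches are 910 bases of DNM2 with TMED1, 249 of AP2A1 with FUZ, 244 of CLTC with PTRH2 and 46 of DNM1 with CIZ1. In crowding, FUZ and CIZ1 had log2 fold changes of 0.29 and -0.27, opposite in sign to AP2A1 and DNM1.

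Because one experiment lowered an ETS factor, the letters to which ETS proteins bind were searched in the RefSeq promoters (GRCh38.p14), which span 250 bases before to 50 after the start site. All 10 members matched by symbol, and the first promoter listed for each also occurred exactly once on its GRCh37 chromosome. The longer form, CCGGAAGT on either strand, was in 0 of the 10 promoters against 4.14% of all 35116 promoters. The shorter form CGGAAG, which is contained in the longer one, was in the promoters of 2 members, CLTA and CLTC, against 19.5% of all promoters. The matches are shown because CLTA rose in ETV4 KD (below) and CLTC is the other clathrin gene with a match. They are read 5′ to 3′ on the strand of the gene, and capitals mark CTTCCG, the reverse complement of CGGAAG.
CLTA, 192 bases before the start site (GRCh37 chr9:36190716-36190741, plus strand, in no annotated exon): tcaggcagcaCTTCCGcctcccgggg
CLTA, 3 bases before the start site (GRCh37 chr9:36190905-36190930, plus strand, in an annotated CLTA exon): acgggtagggCTTCCGctttacccgt
CLTC, 14 bases before the start site (GRCh37 chr17:57697232-57697257, plus strand, in an annotated CLTC exon): cgccgggatcCTTCCGctgggctcag
A match of letters is a description and does not show that a protein binds there.

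All 10 transcripts were detected in every library, and their levels spanned more than an order of magnitude. On the FPKM scale, which corrects for transcript length, AP2M1, the medium subunit that reads tyrosine-based sorting signals, stood highest in every group, at 161.7 ± 3.79 (SD, n = 2) in small and 145.8 ± 6.66 in Ctrl. Only 1.65% of the 19472 genes listed for the crowding experiment had a higher mean. The order in small was then CLTA, AP2S1, CLTC, AP2B1, AP2A1, DNM2, CLTB, AP2A2 and DNM1, with both libraries of each gene above both of the next. In Ctrl, CLTA and AP2S1 overlapped, as did AP2A1 and DNM2. In ETV4 KD, CLTC and AP2B1 overlapped, as did AP2A2 and DNM1. The only genes that differed in rank between small and crowded were the last pair: DNM1 was last in small at 8.19 ± 0.22 FPKM, and in crowded it stood above AP2A2, at 12.2 ± 0.06 against 9.30 ± 0.71. Together the 10 genes took 0.170% to 0.197% of all counts.

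**Figure D1:**
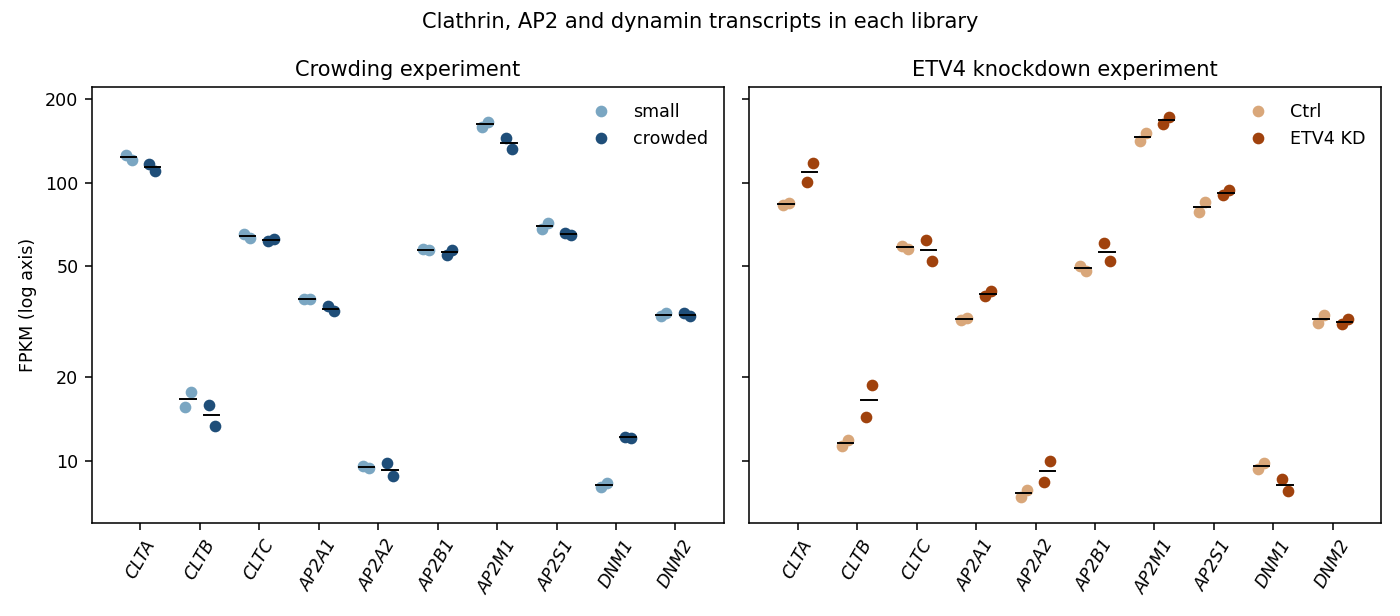
FPKM of the 10 genes in each library, on a log axis, for the crowding experiment (left) and the ETV4 knockdown experiment (right). Points are single libraries and bars are the means of 2. AP2M1 is the highest gene in each group, and the DNM1 points move from 8.04 and 8.35 in small to 12.2 and 12.1 in crowded.

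The first comparison asked whether RNA for the endocytic core differs between hESCs labelled crowded and small, since the study followed receptor uptake under crowding. DNM1 rose in crowded cells, whereas both clathrin light chains and the AP2 subunits AP2A1, AP2M1 and AP2S1 fell slightly. In a quasi-likelihood fit with edgeR, whose p-values were adjusted over all 17672 genes tested (Benjamini-Hochberg), 6 of the 10 members passed at an adjusted p below 0.05, 1 higher and 5 lower. Of all genes tested, 39.7% passed, 19.4% higher and 20.3% lower, so a call in itself was common in this experiment. Only DNM1 also changed by more than 0.5 on the log2 scale, the threshold of the study for a differentially expressed gene (DEG), which 16.1% of all genes met. The fitted log2 fold change was below 0 for 9 of 10 members, with a median of -0.13, against 0.003 for all genes. Among the 12752 genes with a mean of at least 1 FPKM, the medians over 5 bins of transcript length lay between -0.04 and -0.01.

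The light chains bind the hub of the clathrin heavy chain and regulate its assembly. CLTA, the more abundant of the pair, was at 126 and 121 FPKM in small and at 117 and 109.8 in crowded, so the groups did not overlap. Its log2 fold change was -0.18 ± 0.06 (SE, adjusted p = 0.0216), a fall by 11.6%. CLTB was at 15.6 and 17.7 FPKM in small and at 15.9 and 13.3 in crowded. The CLTB groups overlapped in FPKM, although the fit gave -0.24 ± 0.09 (adjusted p = 0.0425). That value was -0.12 without crowded replicate 2 and -0.37 without crowded replicate 1. CLTC, which forms the legs of the triskelion, was at 65.1 and 63.4 FPKM in small and at 61.6 and 62.6 in crowded. The CLTC groups were close but separate, and its log2 fold change of -0.11 ± 0.05 missed the threshold (adjusted p = 0.0870). Light-chain FPKM per heavy-chain FPKM was 2.17 and 2.18 in small and 2.16 and 1.97 in crowded. The clathrin heavy-chain paralog CLTCL1 was expressed at a low level, 1.42 and 1.25 FPKM in small, and rose to 2.00 and 1.95 in crowded (log2 fold change 0.50 ± 0.11, adjusted p = 0.00142).

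Among the AP2 subunits, AP2M1 changed the most. It was at 159 and 164 FPKM in small and at 145 and 132 in crowded, with no overlap. Its log2 fold change was -0.28 ± 0.06 (adjusted p = 0.000495), a fall by 17.6%, yet 44.1% of all genes tested had a larger absolute change. AP2A1, the more abundant of the alternative alpha subunits that anchor AP2 to the membrane lipid PIP2, was at 38.1 and 38.3 FPKM in small and at 35.9 and 34.5 in crowded. Both crowded libraries lay below both small ones (log2 fold change -0.18 ± 0.06, adjusted p = 0.0182). AP2S1, the small sigma subunit, which takes part in reading dileucine signals, was at 68.1 and 71.4 FPKM in small and at 65.6 and 65.0 in crowded. These groups did not overlap either, with a log2 fold change of -0.16 ± 0.06 (adjusted p = 0.0392). AP2A2, the second alpha subunit, was at 9.61 and 9.46 FPKM in small and at 9.80 and 8.80 in crowded, and its groups overlapped. AP2B1, the beta subunit, whose hinge binds clathrin, was at 57.6 and 57.2 FPKM in small and at 55.1 and 57.3 in crowded, again overlapping. Neither passed, with log2 fold changes of -0.09 ± 0.07 for AP2A2 (adjusted p = 0.308) and -0.09 ± 0.05 for AP2B1 (adjusted p = 0.190).

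The dynamins moved apart. DNM1, known mostly from nerve terminals, was at 8.04 and 8.35 FPKM in small and at 12.2 and 12.1 in crowded, well outside the spread within either group. Its log2 fold change was 0.53 ± 0.07 (95% confidence interval 0.39 to 0.66, adjusted p = 2.95e-06), and 21.7% of all genes tested had a larger absolute change. DNM2, the dynamin made in most tissues, was at 33.0 and 34.0 FPKM in small and at 34.0 and 33.0 in crowded. The DNM2 groups coincided (log2 fold change -0.06 ± 0.06, 95% confidence interval -0.17 to 0.06, adjusted p = 0.459). As a share of the summed FPKM of the pair, DNM1 made up 19.6% and 19.7% in small and 26.4% and 26.9% in crowded, a difference of 7.001 percentage points. The third dynamin, DNM3, was lower still, at 1.43 and 1.28 FPKM in small, and fell to 0.786 and 0.395 in crowded, with a steeper fall on counts than on FPKM (log2 fold change on counts -1.73 ± 0.15, adjusted p = 1.56e-08). The shares of the other pairs moved by less than 1 point: CLTB held 11.0% and 12.8% of light-chain FPKM in small and 12.0% and 10.8% in crowded, and AP2A1 held 79.8% and 80.2% of alpha-subunit FPKM in small and 78.5% and 79.7% in crowded. No test was made on shares, since 2 libraries against 2 cannot give an exact permutation p below 0.333.

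**Figure D2:**
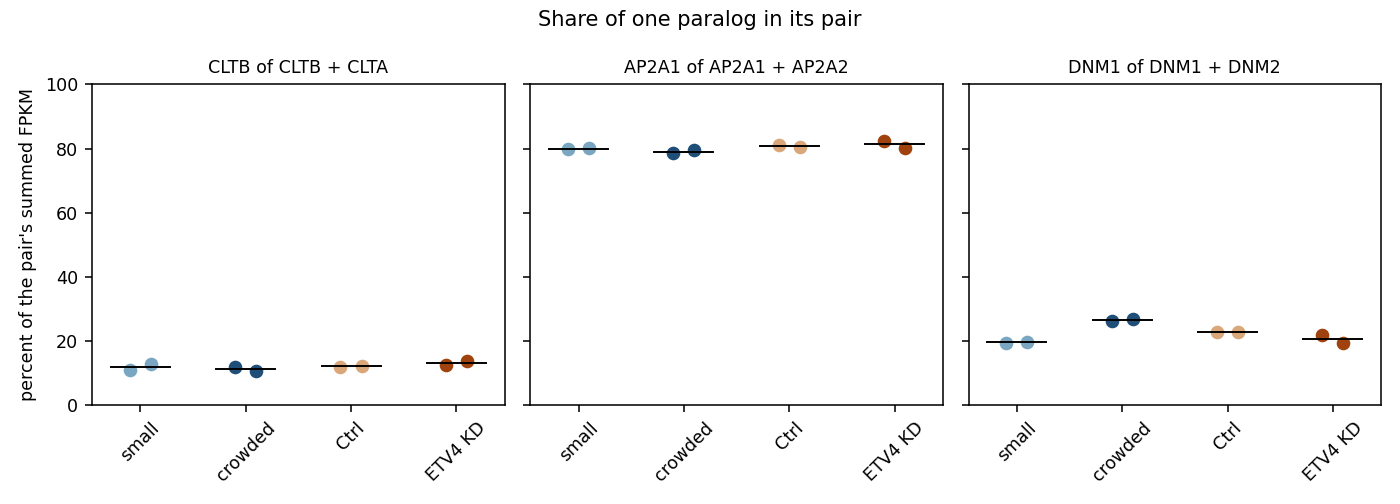
Share of the first-named paralog in the summed FPKM of its pair, in percent, for each library (points) and as the mean of 2 (bars), on an axis from 0 to 100. DNM1 goes from 19.6% and 19.7% in small to 26.4% and 26.9% in crowded, whereas CLTB stays between 10.8% and 13.7% and AP2A1 between 78.5% and 82.3% in all libraries.

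The rise of DNM1 and the fall of AP2M1 kept their calls in all 13 other settings tried, including each library left out. The other 4 falls did not: CLTA, CLTB, AP2A1 and AP2S1 missed the threshold when log2(FPKM + 0.5) was tested with limma, and 2 members passed there, against 37.7% of all genes (21.5% higher and 16.2% lower). CLTB and AP2S1 also missed it with DESeq2's Wald test and with no filter on low counts. Each of these 4 falls also missed it in some fits with a library left out. The median log2 fold change of the members was -0.11 without small replicate 1 and -0.13 without small replicate 2. It was -0.12 without crowded replicate 2 and -0.17 without crowded replicate 1.

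The second comparison asked whether the same genes differ when ETV4 is lowered by a hairpin. CLTA and AP2A1 rose past the threshold, and no fall of a member passed it. With the same test over 17879 genes, 2 of 10 members passed, both higher, against 21.5% of all genes, of which 10.6% were higher and 10.9% lower. None met the DEG rule by edgeR or DESeq2, against 13.0% of all genes by edgeR. At an unadjusted p below 0.05, 6 members were found, against 36.6% of all genes. The fitted log2 fold change was above 0 for 7 of 10 members, with a median of 0.20 against -0.001 for all genes. That median was 0.13 without ETV4 KD replicate 2 and 0.26 without replicate 1.

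CLTA was at 83.1 and 84.4 FPKM in Ctrl and at 101 and 118 in ETV4 KD. Both knockdown libraries lay above both controls but differed from each other by more than the controls did. The CLTA log2 fold change was 0.39 ± 0.10 (SE, adjusted p = 0.0279), and 0.24 without ETV4 KD replicate 2. CLTB was at 11.3 and 11.9 FPKM in Ctrl and at 14.4 and 18.8 in ETV4 KD, with the same wide spread in the knockdown. Its log2 fold change of 0.43 ± 0.14 missed the threshold by edgeR (adjusted p = 0.0575). CLTB did pass with DESeq2's Wald test (adjusted p = 0.0279) and with limma on log2(FPKM + 0.5) (adjusted p = 0.0275). With limma and no filter it missed again (adjusted p = 0.0656). CLTC was at 59.3 and 57.6 FPKM in Ctrl and at 62.05 and 52.1 in ETV4 KD, so the 2 knockdown libraries lay on either side of the controls (log2 fold change -0.03 ± 0.08, adjusted p = 0.804). Light-chain FPKM per heavy-chain FPKM was 1.59 and 1.67 in Ctrl and 1.86 and 2.62 in ETV4 KD, with the larger rise in the second knockdown library. CLTCL1 was at 1.42 and 1.49 FPKM in Ctrl and at 1.61 and 1.30 in ETV4 KD.

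AP2A1 was at 32.1 and 32.6 FPKM in Ctrl and at 39.0 and 40.7 in ETV4 KD. The groups were far apart relative to their spread, with a log2 fold change of 0.31 ± 0.08 (adjusted p = 0.0251). The other AP2 subunits were also higher in both knockdown libraries than in either control, but none passed. AP2M1 was at 141 and 151 FPKM in Ctrl and at 163 and 172 in ETV4 KD (log2 fold change 0.20 ± 0.08, adjusted p = 0.0938). AP2S1 was at 78.6 and 84.9 FPKM in Ctrl and at 90.1 and 93.7 in ETV4 KD (0.18 ± 0.08 on the log2 scale, adjusted p = 0.144). AP2B1 was at 50.3 and 48.3 FPKM in Ctrl and at 60.6 and 52.3 in ETV4 KD (0.20 ± 0.08, adjusted p = 0.106) and, unlike the other AP2 subunits, was nearer to the controls in the second knockdown library. AP2A2 was at 7.44 and 7.88 FPKM in Ctrl and at 8.38 and 9.98 in ETV4 KD (0.27 ± 0.11, adjusted p = 0.122). FPKM did not overlap between groups for 8 of 10 members, against 63.3% of all genes tested. In the crowding experiment the same was true of 6 of 10 members, against 70.2% of all genes.

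The dynamins did not pass in the knockdown. DNM1 was at 9.33 and 9.82 FPKM in Ctrl and at 8.63 and 7.78 in ETV4 KD, lower in both libraries (log2 fold change -0.15 ± 0.09, 95% confidence interval -0.35 to 0.04, adjusted p = 0.234). DNM2 was at 31.3 and 33.3 FPKM in Ctrl and at 30.9 and 32.4 in ETV4 KD, and the groups overlapped (-0.02 ± 0.08, adjusted p = 0.865). DNM1 made up 23.0% and 22.8% of the pair in Ctrl and 21.8% and 19.4% in ETV4 KD.

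Transcript length moved with the knockdown values. The effective length implied by counts and FPKM was 1198 bases for CLTA, 1307 for CLTB and 943 for AP2S1, all in the shortest of 5 equal bins of the 13036 genes with a mean of at least 1 FPKM. It was 9314 for CLTC and 6319 for AP2B1, both in the longest bin. Between the 2 ETV4 KD libraries, the log2 difference of replicate 2 from replicate 1 had a median of 0.11 in the shortest bin and -0.16 in the longest, with Spearman's rho of -0.41 with length across genes, which are not independent replicates. The same rho was -0.35 within Ctrl, and -0.08 and 0.06 within small and crowded. For the knockdown effect itself, the medians were 0.05 in the shortest bin and -0.07 in the longest. CLTA and CLTB stood 0.27 and 0.35 higher (log2) in replicate 2 of ETV4 KD than in replicate 1, and CLTC and AP2B1 0.21 and 0.17 lower. AP2A2, at 5057 bases in the next-longest bin, went against the trend: it stood 0.29 higher, where the bin median was -0.06. Within Ctrl, the same difference was -0.004 for CLTA, -0.060 for CLTB and 0.083 for AP2S1, against a shortest-bin median of 0.055. For CLTC and AP2B1 it was -0.069 and -0.086 there, against a longest-bin median of -0.094. AP2A1, at 3740 bases in the middle bin, differed by 0.10. The part of length in these values was not tested further.

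Neither CLTA nor AP2A1 kept its call when either Ctrl library was left out. Without Ctrl replicate 1 their log2 fold changes were 0.39 and 0.31, and without Ctrl replicate 2 they were 0.40 and 0.31. Without ETV4 KD replicate 1 the log2 fold changes of CLTA and AP2A1 were 0.53 and 0.37, and without replicate 2 they were 0.24 and 0.25.

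The effects of the experiments were then compared directly, in 1 fit of all 8 libraries over the 17790 genes that passed the filter, with no library shared between the experiments. The crowding effect was lower than the knockdown effect for CLTA, CLTB and 4 AP2 subunits, and higher for DNM1. In all, 7 of 10 members passed, 6 negative and 1 positive, against 38.5% of all genes, 19.7% negative and 18.8% positive. The largest difference on the negative side was that of CLTB, -0.68 ± 0.18 (SE, adjusted p = 0.00991), followed by CLTA at -0.58 ± 0.12 (adjusted p = 0.00303). AP2A1 differed by -0.49 ± 0.09 (adjusted p = 0.00140) and AP2M1 by -0.49 ± 0.10 (adjusted p = 0.00209). AP2S1 and AP2B1 differed by -0.35 ± 0.10 and -0.29 ± 0.09 (adjusted p = 0.0147 and 0.0228). For DNM1 the difference was 0.67 ± 0.10 (adjusted p = 0.000318). AP2A2 missed the threshold at -0.37 ± 0.14 (adjusted p = 0.0536). The data could not separate the effects for CLTC, with a 95% confidence interval of -0.28 to 0.12, or for DNM2, with one of -0.24 to 0.16. CLTA, AP2A1, AP2M1 and DNM1 kept their calls in all 13 other settings, whereas AP2B1, AP2S1 and CLTB each lost theirs when some libraries were left out.

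**Figure D3:**
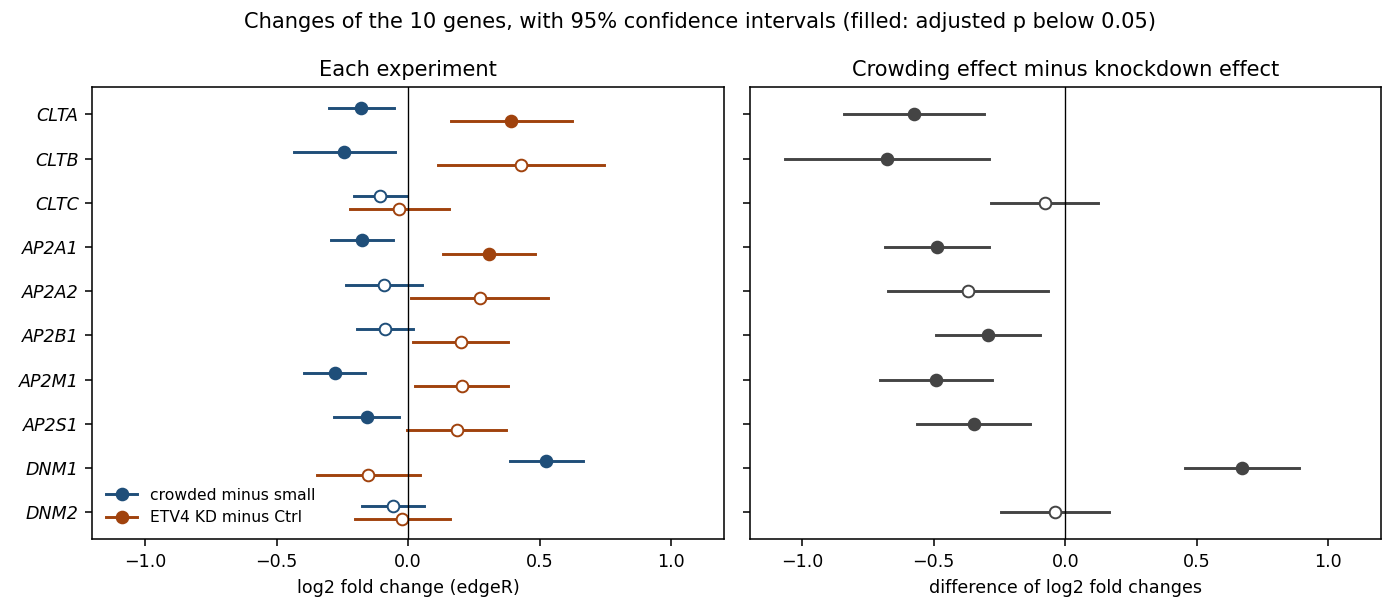
Left, log2 fold changes of the 10 genes from edgeR for crowded minus small and for ETV4 KD minus Ctrl. Right, the crowding effect minus the knockdown effect, from the joint fit. Lines are 95% confidence intervals and filled points have an adjusted p below 0.05. CLTA, CLTB and AP2 subunits lie left of 0 under crowding and right of 0 under knockdown, and DNM1 lies at 0.53 and -0.15.

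Genes that work beside the core were read from lists of adaptors, of scission and uncoating factors, and of endosomal proteins. Of 28 adaptor genes, which select cargo and start pits, 13 passed in crowding, 6 higher and 7 lower, and 3 passed in the knockdown, 2 higher and 1 lower. These were 46.4% and 10.7% of the list, against 39.7% and 21.5% of all genes. The list medians were -0.01 and -0.02, near those of all genes, and limma on log2(FPKM + 0.5) split its crowding calls 6 higher to 4 lower. STON1 and STON2 encode stonins, adaptors that bind AP2. STON1 was at 1.14 and 1.12 FPKM in small and rose to 2.60 and 3.85 in crowded (log2 fold change 1.46 ± 0.16, adjusted p = 5.54e-05). STON2 went the other way, from 3.41 and 3.41 FPKM to 2.08 and 1.65 (-0.96 ± 0.10, adjusted p = 8.67e-06), and in the knockdown it rose from 1.99 and 2.11 to 3.40 and 3.37 (0.70 ± 0.09, adjusted p = 0.00230). Among the other adaptors with a mean of at least 1 FPKM, the largest changes past the threshold in crowding were those of 4 genes. HIP1R (0.45) and ITSN2 (0.44) were higher, and DAB2 (-0.92) and FCHO2 (-0.44) were lower. HIP1R links clathrin to actin, ITSN2 is a scaffold, DAB2 selects cargo, and FCHO2 acts at the start of pit formation. In the knockdown, EPS15, a scaffold of the pit rim, rose by 0.51 on the log2 scale (adjusted p = 0.00467), and ARRB1, the beta-arrestin adaptor of G-protein-coupled receptors, fell by 0.97 (adjusted p = 0.00604).

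Of 24 scission, actin-linked and uncoating genes, 11 passed in crowding, 3 higher and 8 lower, and 7 in the knockdown, 6 higher and 1 lower. These were 45.8% and 29.2% of the list, against 39.7% and 21.5% of all genes. With limma on log2(FPKM + 0.5) the splits were 5 higher and 7 lower in crowding, and 7 higher and 0 lower in the knockdown. HSPA8, the chaperone that strips clathrin from vesicles, was at 1209 and 1206 FPKM in small and at 914 and 803 in crowded. Both crowded libraries lay far below both small ones (-0.55 ± 0.05, adjusted p = 6.07e-07), and in the knockdown HSPA8 differed by 0.09 ± 0.09 (adjusted p = 0.539). SYNJ2, a phosphoinositide phosphatase that acts in uncoating, fell from 5.99 and 5.48 FPKM to 2.74 and 2.39 in crowded (-1.22 ± 0.08, adjusted p = 6.20e-10). In the knockdown SYNJ2 rose from 2.45 and 2.37 FPKM to 3.46 and 3.94 (0.62 ± 0.11, adjusted p = 0.00812). SH3GL3, an endophilin that binds dynamin, fell by 0.55 in crowded, and PACSIN1, PACSIN3 and INPP5B rose by 0.44, 0.31 and 0.22. In the knockdown the actin-linked DBNL and WASL rose by 0.72 and 0.61, and PACSIN1 fell by 0.43 (adjusted p = 0.0481).

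Of 22 endosomal genes, 7 passed in crowding, 5 higher and 2 lower, and 5 in the knockdown, 4 higher and 1 lower. These were 31.8% and 22.7% of the list, against 39.7% and 21.5% of all genes, and limma on log2(FPKM + 0.5) called 6 higher and 0 lower in crowding. In crowded cells the largest changes among them were those of APPL2 (0.30), LAMP2 (0.23) and RABEP1 (0.21), which were higher, and LAMP1 (-0.21) and RAB5C (-0.19), which were lower. In the knockdown RAB21, a GTPase of early endosomes, rose from 1.98 and 2.14 FPKM to 3.87 and 3.65 (0.87 ± 0.08, adjusted p = 0.000755), and PIK3C3 and LAMP1 rose by 0.39 and 0.34. Of the endosomal proteins imaged in the study, RAB7A, the GTPase of late endosomes, rose by 0.15 in crowded (adjusted p = 0.0338) and fell by 0.43 in the knockdown (adjusted p = 0.00808). EEA1, RAB5A and RAB11B passed in neither experiment, with log2 fold changes of -0.05, 0.07 and -0.09 in crowding and -0.10, -0.18 and 0.23 in the knockdown.

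AP1 and AP3 are the sister adaptor complexes that serve the Golgi and endosomes rather than the plasma membrane. Of their 15 genes, 6 passed in crowding, 2 higher and 4 lower, and 3 in the knockdown, 2 higher and 1 lower, which were 40% and 20% of the list, near the 39.7% and 21.5% of all genes. The direction in crowding depended on the scale, since limma on log2(FPKM + 0.5) called 3 higher and 0 lower. In the knockdown it called 2 higher and 0 lower. The median was -0.06 in crowding, against -0.13 for the 10 core genes, and 0.09 in the knockdown, against 0.20. AP1M2, the AP1 medium subunit of epithelial cells, rose by 0.20 in crowded (adjusted p = 0.00862), opposite in sign to AP2M1, whereas AP1M1 fell by 0.29 (adjusted p = 0.00473), AP1B1 by 0.18 and AP3B2 by 0.37, and AP1G2 rose by 0.17. In the knockdown AP1S2 and AP1B1 rose by 0.40 and 0.26, and AP3S2 fell by 0.27.

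Of 11 receptors carried by the pathway, 5 passed in crowding, 3 higher and 2 lower, and 2 in the knockdown, both lower. These were 45.5% and 18.2% of the list, against 39.7% and 21.5% of all genes. FGFR1, the receptor whose uptake the study followed, was at 66.6 and 68.3 FPKM in small and at 96.8 and 91.0 in crowded. The rise exceeded the spread (0.43 ± 0.05, adjusted p = 1.45e-06), and it stands beside AP2M1, which fell, and DNM1, which rose, in the same libraries. In the knockdown FGFR1 was at 66.2 and 65.8 FPKM in Ctrl and at 68.3 and 62.4 in ETV4 KD, so the groups overlapped. FGFR2 and INSR rose by 0.43 and 0.43 in crowded, and IGF1R fell by 0.34. In the knockdown IGF1R and FGFR4 fell by 0.52 and 0.36.

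**Figure D4:**
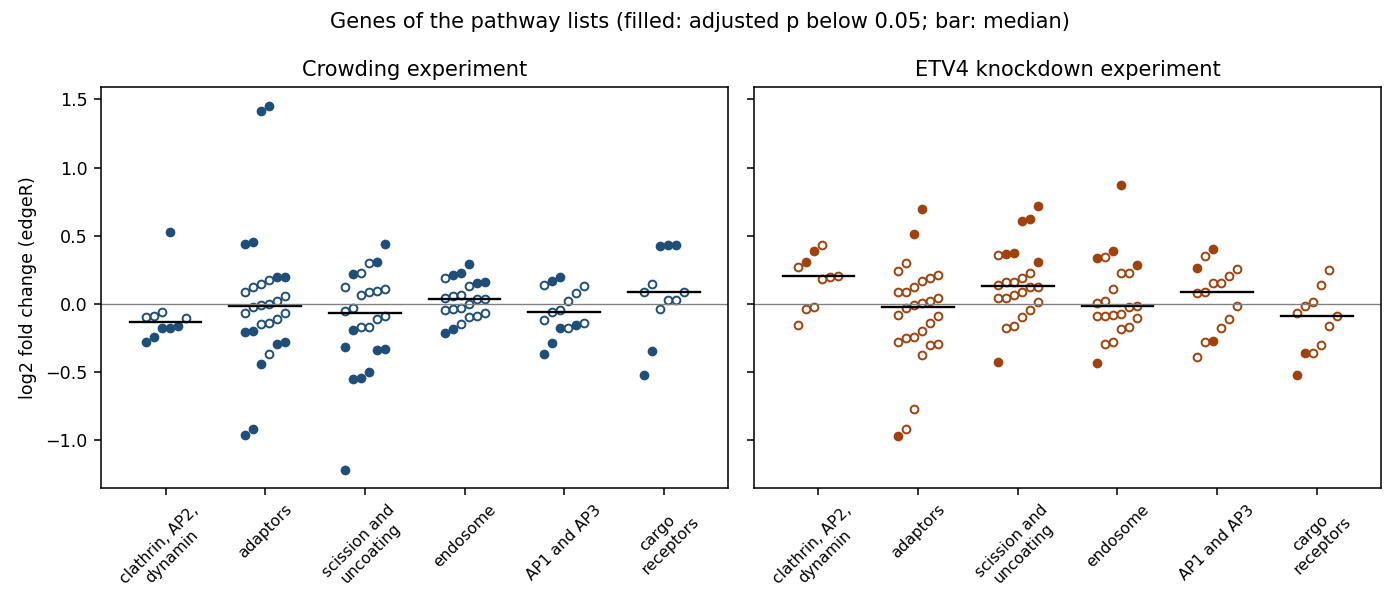
Log2 fold change of each gene of the 10 core genes and of the 5 pathway lists, in the crowding experiment (left) and the ETV4 knockdown experiment (right). Filled points have an adjusted p below 0.05 in edgeR and bars are list medians, which for the core genes are -0.13 and 0.20. Larger single changes lie among adaptors and scission factors than among the core genes in both panels.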

How the data were processed

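RNA from 8 H9 libraries was sequenced with poly-A selection, and per the labels and methods reads were trimmed with Trimmomatic, aligned to GRCh37 (hg19) with HISAT2 2.1.0 and assembled with StringTie 2.1.3b. The authors deposited, for each experiment, a table with read counts per gene, not normalized, and FPKM per gene, normalized for length and depth. Every gene listed had a read in each library of its table. A further 16 columns of per-sample values (TPM and normalized values) were not used, nor were columns of the authors' own comparisons (fold change, logCPM, raw and adjusted p, group means).

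Members and lists were chosen with earlier results of these data known. Counts were filtered by filterByExpr, scaled by TMM and tested with edgeR 4.0.16 (R 4.3.3), with p-values adjusted by Benjamini-Hochberg over all genes tested and a threshold of 0.05. Named genes were the members, ETV4, 6 endocytosis genes imaged in the study, 2 paralogs and, per list, up to 3 genes per direction with the largest change past the threshold and a mean of at least 1 FPKM. Alternatives were DESeq2 1.42.0, limma 3.58.1 on log2(FPKM + pseudocount), other filters, a replicate block and each library left out. No pair of replicates was 1 library deposited again, since chi-square over genes was 5.78 to 23.0 times its degrees of freedom. In simulated data, edgeR found 89% (crowding, 17668 genes) and 87% (knockdown, 17874 genes) of 200 genes changed by 1 on the log2 scale. The simulation gave every gene the same variation, and in neither experiment did a core gene change by more than 0.53. The shares found therefore do not apply to the changes of the core genes. Biological coefficients of variation were 6.83% and 9.93%. Promoter letters came from RefSeq and positions from GENCODE lifted to GRCh37. Some genes that this rule or the overlaps would name are not reported here.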

Additional observations from a re-analysis of the deposited data

Results flagged for a closer look

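With 2 libraries per group, no group was large enough for a check on single outlying libraries. The effects of crowding and of ETV4 knockdown differed, by the joint edgeR test of the difference, for 7 of the 10 genes. The log2 differences (crowding minus knockdown) were -0.58 for CLTA, -0.68 for CLTB, -0.49 for AP2A1, -0.29 for AP2B1, -0.49 for AP2M1, -0.35 for AP2S1 and 0.67 for DNM1. For CLTA and AP2A1 both effects also passed on their own, lower in crowded and higher in ETV4 KD. The fitted crowding effect was below 0 and the fitted knockdown effect above 0 for CLTB, AP2B1, AP2M1 and AP2S1, and the reverse held for DNM1. For these 5 genes the knockdown effect alone did not pass in the main edgeR fit, although that of CLTB passed with DESeq2's Wald test.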

How the results depend on the processing

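Libraries held at least 50359703 reads, and the lowest count of a core gene was 808 (CLTB, Ctrl replicate 2). Each group held 2 libraries. Under the DEG rule of the study, the genes past it in crowding numbered 1 of the 10 core genes, 4 adaptors, 3 scission genes, 0 endosomal genes, 0 of AP1 and AP3, and 1 cargo receptor. In the knockdown they numbered 0 core genes, 3 adaptors, 3 scission genes, 1 endosomal gene, 0 of AP1 and AP3 and 1 cargo receptor. For the difference of the effects, 3 core genes met the rule. Limma on log2(FPKM + 0.5), log2(FPKM + 0.1) or log2(FPKM + 1) each passed 2 core genes and 3 of AP1 and AP3 in crowding. With no filter, it passed 2 core genes, 8 adaptors and 2 of AP1 and AP3 in crowding, and 1 core gene, 3 endosomal genes, 1 of AP1 and AP3 and 1 cargo receptor in the knockdown. In the limma fits the log2 change of DNM2 in crowding turned from -0.06 to 0.000178, 0.000180 or 0.000176. DESeq2's Wald test passed 5 adaptors in the knockdown. The cause of these changes was not tested.

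No label pairs samples with the same replicate number. Over the genes tested, their deviations correlated at -0.04 in crowding and 0.09 in the knockdown. The knockdown experiment did share a trend with transcript length. Replicate 2 minus replicate 1 had a Spearman's rho with length of -0.35 in Ctrl and -0.41 in ETV4 KD. The part of this trend in the block result was not tested. With the replicate number as a block, 7 core genes, 14 adaptors, 11 endosomal genes, 10 of AP1 and AP3 and 5 cargo receptors passed in the knockdown. Without the block these counts were 2, 3, 5, 3 and 2. Calls thus rose in each of these lists, and the share of all genes that passed with the block is not given. The count of core genes is therefore not read as a result about them. The block moved no other count by over 1.5 times.

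Leaving out 1 library, where the lone library of its group is assumed to vary like the others, gave 2 to 7 core genes, 8 to 14 adaptors, 0 to 9 endosomal genes and 1 to 7 of AP1 and AP3 in crowding. In the knockdown it gave 0 to 6 core genes, 4 to 10 adaptors, 3 to 11 scission genes, 2 to 10 endosomal genes, 0 to 9 of AP1 and AP3 and 0 to 3 cargo receptors, and 4 to 8 core genes for the difference. Signs turned only for genes that had not passed. DNM2 in the knockdown ranged from -0.086 to 0.040 and was 0.019 without Ctrl replicate 2 and 0.040 without ETV4 KD replicate 1. CLTC in the knockdown ranged from -0.131 to 0.061, the highest without ETV4 KD replicate 2. For the difference, CLTC ranged from -0.170 to 0.018, the highest without ETV4 KD replicate 1, and DNM2 from -0.104 to 0.026, the highest without ETV4 KD replicate 2.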
